A study of Mus musculus with 8 samples.

Results

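MHCII+ cells and Ly6C-high monocytes sorted from the conjunctiva of mice under desiccating stress (DS) were compared on a panel of 754 myeloid genes. They are 2 of the 8 pooled samples of the series, chosen by their labels: CD11b+ cells that carried MHC class II, and CD11b+ cells without it that carried CD64 and a high level of Ly6C. Both came from female C57BL/6J mice, labelled as 10 weeks old, that had received scopolamine in the drinking water to inhibit tear secretion and a fan draft for 5 days. Each sample was 1 pool from both conjunctivae of 20 mice, so neither the spread between mice nor that between sorts was measured, and no p-values are given. NK cells, granulocytes, T cells and B cells had been gated out. The same 2 populations from mice kept without stress (NS) are given beside them where they help. MHCII+ is the wider gate of the pair, as it was not restricted by CD64 or Ly6C and can hold macrophages as well as dendritic cells.

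Classical Ly6C-high monocytes leave the blood through the chemokine receptor CCR2 and enter inflamed tissue, where they can become macrophages or antigen presenting cells. MHC class II molecules display peptides from ingested proteins to CD4+ T cells. They are loaded with the help of the invariant chain (Cd74) and the H2-DM proteins, and their genes are controlled together through the X and Y boxes of their promoters. Retnla, Chil3 and Chil4 encode secreted proteins that mouse macrophages make in response to IL-4 through the transcription factor STAT6, and Chil3 is also a marker of classical monocytes.

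The promoters of 5 genes with large ratios are printed for reference. They are 2 class II genes and 3 genes of alternative activation. Of the latter, Retnla was at one end of the comparison and the paralogs Chil3 and Chil4 at the other. The ratios come from probe counts alone, and a link between them and the promoters was not tested. The windows run from 250 bases before to 50 bases after the start of the gene on its own strand, in RefSeq's annotation of GRCm38.p6. They are at chr17:34287774-34288073 (H2-Aa, minus strand), chr17:34305617-34305916 (H2-Eb1, plus strand), chr16:48842359-48842658 (Retnla, plus strand), chr3:106167515-106167814 (Chil3, minus strand) and chr3:106219430-106219729 (Chil4, minus strand). Capitals mark matches on either strand to GCAAC (the core of the X1 box), TGACGTCA (a cyclic AMP response element, which the X2 box resembles) and CTGATTGG (the Y box) in the class II genes, and to the STAT6 motif (TTC and GAA with a gap of 4 bases) in the others.
H2-Aa: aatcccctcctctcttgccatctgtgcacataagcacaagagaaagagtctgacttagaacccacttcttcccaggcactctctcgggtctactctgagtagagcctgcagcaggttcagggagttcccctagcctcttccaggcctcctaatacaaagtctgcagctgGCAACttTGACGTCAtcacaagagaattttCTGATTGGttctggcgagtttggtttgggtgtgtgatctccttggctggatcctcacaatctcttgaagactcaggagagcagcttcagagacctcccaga
H2-Eb1: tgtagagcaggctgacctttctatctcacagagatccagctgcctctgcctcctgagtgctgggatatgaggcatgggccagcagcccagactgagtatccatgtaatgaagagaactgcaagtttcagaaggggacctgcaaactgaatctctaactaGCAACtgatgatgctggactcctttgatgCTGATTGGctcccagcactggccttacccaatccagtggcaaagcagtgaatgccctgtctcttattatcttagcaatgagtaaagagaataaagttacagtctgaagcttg
Retnla: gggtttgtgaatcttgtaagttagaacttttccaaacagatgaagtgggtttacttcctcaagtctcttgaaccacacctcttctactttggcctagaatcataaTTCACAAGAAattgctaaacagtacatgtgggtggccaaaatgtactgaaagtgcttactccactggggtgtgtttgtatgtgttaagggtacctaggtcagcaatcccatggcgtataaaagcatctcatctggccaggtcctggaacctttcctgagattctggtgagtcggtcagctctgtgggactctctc
Chil3: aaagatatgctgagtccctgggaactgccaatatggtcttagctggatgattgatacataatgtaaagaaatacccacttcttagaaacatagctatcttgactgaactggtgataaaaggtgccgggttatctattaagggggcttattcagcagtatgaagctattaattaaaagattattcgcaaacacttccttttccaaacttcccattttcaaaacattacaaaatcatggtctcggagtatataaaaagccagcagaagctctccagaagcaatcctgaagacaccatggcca
Chil4: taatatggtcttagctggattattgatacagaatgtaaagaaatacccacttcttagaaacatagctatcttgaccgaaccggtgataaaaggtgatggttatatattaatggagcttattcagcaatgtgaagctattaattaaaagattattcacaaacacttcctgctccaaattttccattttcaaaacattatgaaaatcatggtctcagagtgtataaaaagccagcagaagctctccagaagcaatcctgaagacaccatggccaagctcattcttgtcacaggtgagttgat

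The Y box letters began 51 bases before the start of H2-Aa and 62 bases before that of H2-Eb1, and GCAAC lay 30 and 29 bases further upstream. TGACGTCA was found in H2-Aa and not in H2-Eb1. Among other genes named below, CTGATTGG was also found in a window of Gsn, which was lower in MHCII+ cells. It had no match in the windows of the class II pathway genes H2-DMa, H2-DMb1 and H2-DMb2. Of 32851 promoter windows of the same length, 4.1% held CTGATTGG, 35.2% held GCAAC and 1.79% held TGACGTCA. The STAT6 motif began 145 bases before the start of Retnla and had no match in the windows of Chil3 and Chil4. It was found in 6.95% of all windows. The windows of Chil3 and Chil4 were aligned with each other and 83.7% of their 300 bases were identical. These 2 genes are close paralogs, and since the probe sequences were not used here, a count for one may include transcripts of the other.

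The MHCII+ sample had 30335 counts over the 754 genes and the monocyte sample had 3929, a ratio of 7.72. The counts were scaled to equal totals, so each log2 ratio below is that of the raw counts less 2.95. A fluorescent barcode is counted for each bound probe, and 8 negative control probes without a target show how many counts arise without a transcript. The mean + 2 SD of these probes, called here the limit, was 15.3 counts in MHCII+ cells and 14.05 in monocytes. Of the 754 genes, 218 were above the limit in at least 1 of the samples and were kept. Of these, 47 were above it in both, 166 in MHCII+ cells only and 5 in monocytes only. With counts of 16, Btk, Cd1d1 and Itgb7 were just inside the limit in MHCII+ cells, and with 15 counts, Tlr9, Sdha and Vav1 were just outside. In monocytes Ccr2 and Cxcl2 were inside with 15 counts, and Csf1r, Skil and Col3a1 were below it with 14. In the monocyte sample 64.1% of the total came from genes at or below the limit, against 7.42% in the MHCII+ sample. Set to the mean of the negative control probes, 754 genes would give 3958.5 counts in the monocyte sample, about its total. Fewer cells and less RNA per cell cannot be told apart as the origin of the lower total. Among the other samples, the stressed Ly6C-inter cells stood apart with 583 counts of Ly6c1 and 1436 of Emp1. No ratio reported here uses that sample.

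**Figure D1:**
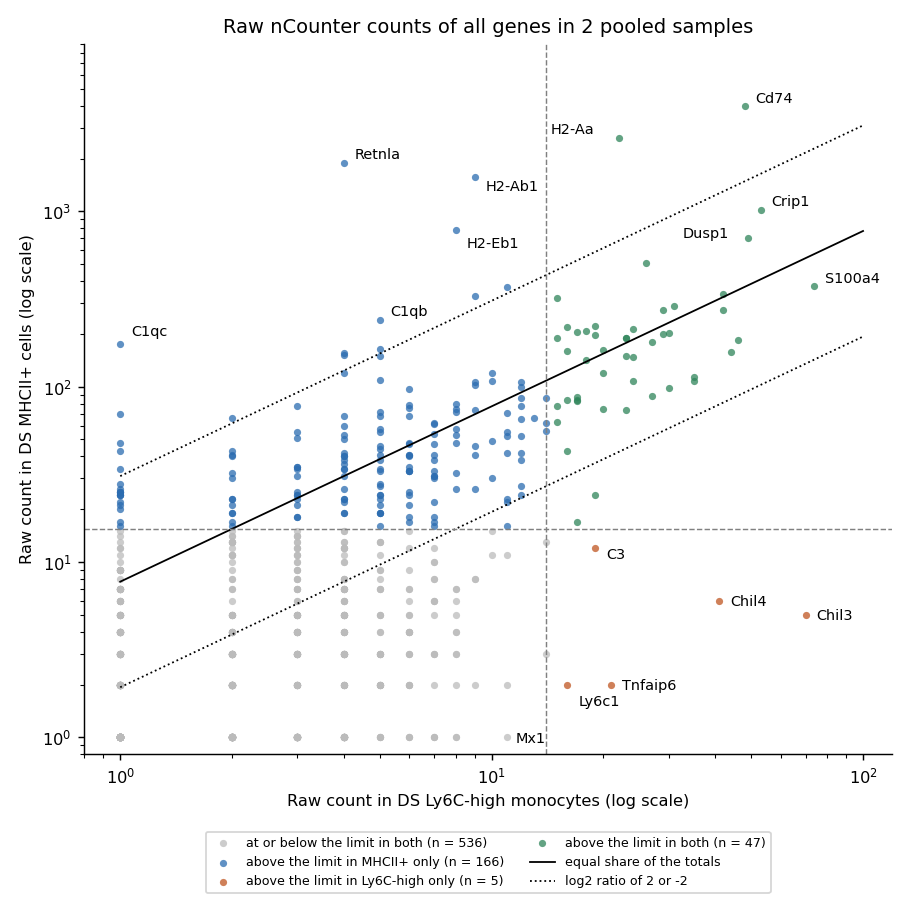
Raw counts of the 754 genes in stressed Ly6C-high monocytes (x axis) and stressed MHCII+ cells (y axis), both on log scales, 1 point per gene and 1 pooled sample per axis. Dashed lines are the negative control limits of 14.05 and 15.3 counts, the solid line is the ratio of the totals (7.72), and the dotted lines lie a log2 ratio of 2 to either side. The class II genes and Retnla are far above the lines, and Chil3, Chil4, Tnfaip6, Ly6c1 and C3 are the 5 genes above the limit in monocytes only.

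The sort labels were first set against their own transcripts. H2-Aa, the alpha chain of I-A, had 2635 counts in stressed MHCII+ cells and 22 in stressed monocytes. Cd74 had 3967 and 48 counts. Both were far higher in MHCII+ cells, as the gate fixes, and both were above the limit in monocytes as well. Ly6c1, the only Ly6C gene measured, had 16 counts in monocytes and 2 in MHCII+ cells, a difference that rests on few counts. In the other stressed populations it had 583 counts in Ly6C-inter and 14 in Ly6C-low cells. Its counts thus did not follow the level of Ly6C in the gates. Ccr2, a marker of classical monocytes that was not used in the sort, had 190 counts in MHCII+ cells and 15 in monocytes, a log2 ratio of 0.71 with a 95% interval of -0.04 to 1.58. Of the sort markers, Fcgr1, the gene of CD64, had 22 counts in MHCII+ cells and 7 in monocytes, below the limit in the cells sorted as CD64+. Itgam, the gene of CD11b, had 75 and 8 counts, again below the limit in monocytes. The intervals here and below are exact (Clopper-Pearson) intervals of the ratio of 2 counts after scaling, and they cover counting error only. Values of 1 are the smallest in the table and may stand for less.

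Markers of cells that the gate should remove were low, as were most markers of dendritic cells, which it did not remove. Most genes of the panel were low too. Of the 754 genes, 213 were above the limit in MHCII+ cells and 52 in monocytes. Low marker counts therefore do not show that such cells were absent. None of 17 granulocyte markers measured was above the limit in either sample, and their summed counts were 37 in MHCII+ cells and 59 in monocytes. Of 11 epithelial, stromal and endothelial markers, none was above the limit. Their sums were 24 in MHCII+ cells and 60 in monocytes, and Col3a1, a fibroblast collagen, supplied 14 counts of the latter. No marker was at 0, since the smallest value in the table is 1. Of 4 lymphocyte and NK markers measured, Klrk1 alone was above the limit, with 21 counts in MHCII+ cells and 2 in monocytes. Of 10 dendritic cell markers, Irf4, a transcription factor of dendritic cells and some macrophages, was above it with 34 and 4 counts, while Itgax, Flt3, Ccr7, Xcr1 and Clec9a were at or below the limit in both samples.

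Of the 218 kept genes, 17 were higher in stressed MHCII+ cells than in stressed monocytes with a log2 ratio of 2 or more, which is 7.80% of the genes kept. In the other direction, 8 genes (3.67%) were lower by as much. The interval lay above 0 for 24 genes (11%) and below 0 for 30 (13.8%), whatever the size of the ratio. The median of the kept genes was 0.02. Of the 17 higher genes, 15 were at or below the limit in monocytes, and for Rgs1 and H2-DMb2 the interval included 0. With low counts raised to the limit, 5 of the 17 were still past the threshold (Retnla, H2-Ab1, H2-Aa, H2-Eb1 and Cd74), as were all 8 lower genes. Under this setting a gene at the limit in both samples is at -2.82, and 64 kept genes were past the threshold on the lower side. Passing it there is thus no check on the 8 lower genes. A gene kept only through the sample in which it is high is bound to lean that way, so these numbers describe the samples and test nothing.

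The ratio of a gene that is at background in monocytes is set by that background. The 166 genes above the limit in MHCII+ cells only had a median of 38 counts there and of 5 in monocytes, where the negative control probes had a mean of 5.25. Their median log2 ratio was 0.09. A gene at the mean of the negative control probes in both samples would be at -2.79, because the scaling divides the MHCII+ counts by the larger total. For genes of this kind a ratio near 0 therefore does not show that the populations share a level.

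The MHC class II genes were the main group higher in MHCII+ cells. Of 14 genes of class II presentation measured, 11 were kept, 6 were past the log2 ratio of 2 and none was lower by as much. Their median was 2.48, against 0.02 for all kept genes. Because the cells were sorted on the MHC class II protein, these values describe the gate. H2-Ab1, the beta chain of I-A, had 1574 counts in MHCII+ cells and 9 in monocytes, a log2 ratio of 4.50 (3.57 to 5.63). H2-Aa was at 3.96 (3.35 to 4.63), and H2-Eb1, the beta chain of I-E, had 787 and 8 counts (3.67, 2.69 to 4.89). Cd74 was at 3.42 (3.01 to 3.86). The counts of H2-Ab1 and H2-Eb1 in monocytes were below the limit, and with these raised to it their ratios were 3.86 and 2.86.

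The H2-DM genes, whose products exchange the peptides in class II molecules, had fewer counts, and of the 3 kept genes H2-DMb1 was past the threshold with an interval above 0. H2-DMa had 119 counts in MHCII+ cells and 4 in monocytes (1.95, 0.55 to 3.85). H2-DMb1 had 70 counts and 1 count (3.18, 0.66 to 8.50), and H2-DMb2 had 43 counts and 1 count (2.48, -0.08 to 7.81). The intervals of the costimulatory genes Cd86, Cd80 and Cd40 included 0. Their monocyte counts were below the mean of the negative control probes there (5.25), so a shared level is not shown. Cd86 had 36 and 4 counts (0.22, -1.26 to 2.17), Cd80 had 23 and 5 (-0.75, -2.17 to 1.0) and Cd40 had 22 counts and 1 count (1.51, -1.12 to 6.88). Cd83, a maturation marker that was named after its value was seen, was above the limit in both samples, with 218 and 16 counts (0.82, 0.09 to 1.65). Of 11 genes of class I presentation measured, 5 were kept, with a median of 0.06. H2-K1 (213 and 24 counts) and H2-D1 (339 and 42), which present peptides to CD8+ T cells, had log2 ratios of 0.20 (-0.41 to 0.87) and 0.06 (-0.40 to 0.56).

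Retnla had the highest ratio of all genes, with 1887 counts in MHCII+ cells and 4 in monocytes and a log2 ratio of 5.93 (4.57 to 7.81). With the monocyte count set to the limit of 14.05, it was 4.12. The chitinase-like genes were at the other end. Chil3 had 5 counts in MHCII+ cells and 70 in monocytes, at a log2 ratio of -6.76 (-8.42 to -5.47). Chil4 had 6 and 41 counts (-5.72, -7.25 to -4.48). Chil3 and Chil4 were thus higher in the monocyte sample even in raw counts, although that sample had the smaller total. Within the alternative activation list, 10 of 13 genes measured were kept, 2 were past the threshold in each direction and the median was -0.30. Mrc1, the mannose receptor, was the other higher gene, with 151 and 4 counts (2.29, 0.90 to 4.18). Ccl24 (23 and 2 counts) and Ccl17 (24 and 3 counts), chemokines of the same programme, had intervals that included 0, and Arg1 was below the limit in both samples. The genes of this list therefore did not move as a group.

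**Figure D2:**
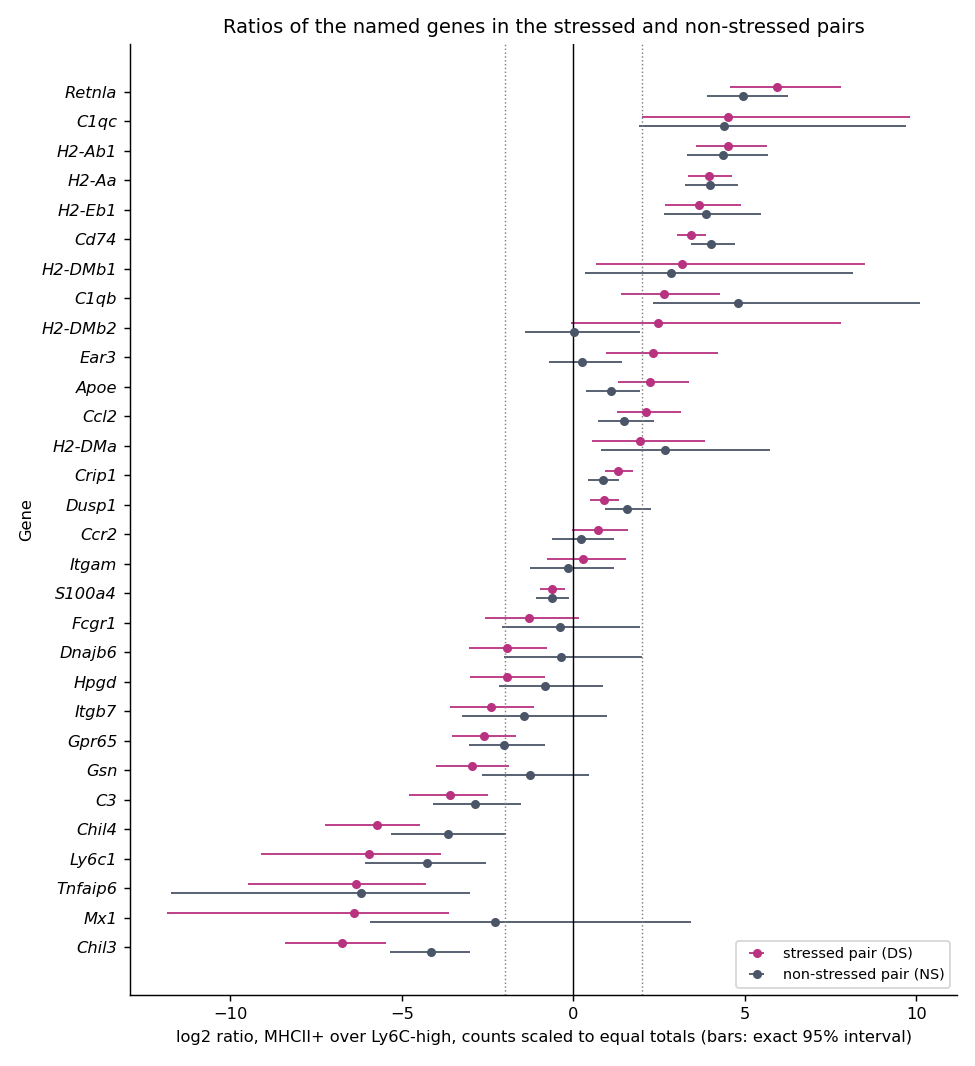
log2 ratios of MHCII+ cells over Ly6C-high monocytes (x axis) for the named genes (y axis) in the stressed pair and in the non-stressed pair, after scaling to equal totals. Points are ratios of 2 pooled samples, bars are exact 95% intervals for counting error, and dotted lines mark log2 ratios of -2 and 2. Retnla (5.93) and Chil3 (-6.76) are at the extremes of the stressed pair.

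Some tissue macrophage genes were higher in MHCII+ cells. Of 17 measured, 11 were kept, 4 were past the threshold, 6 had an interval above 0 and none had one below 0, with a median of 1.75. Over all kept genes, 7.8% were past the threshold on this side and 11% had an interval above 0. The 6 genes were all kept through MHCII+ cells only, and such genes are bound to lean that way. With their monocyte counts raised to the limit, none was past the threshold, and the ratios ran from -0.48 (Cd163) to 1.60 (Apoe). The genes of C1q, the recognition molecule of the classical complement pathway, were among them. C1qc had 176 counts in MHCII+ cells and 1 in monocytes (4.51, 2.01 to 9.82), C1qb had 241 and 5 (2.64, 1.4 to 4.28) and C1qa had 150 and 5 (1.96, 0.70 to 3.60). Since each monocyte count was at the level of the negative control probes, the intervals are wide and the 3 genes do not differ beyond them. Apoe, an apolipoprotein made by macrophages, had 329 and 9 counts (2.24, 1.30 to 3.38). Cd163, the haemoglobin scavenger receptor, had 78 and 3 counts (1.75, 0.15 to 4.06). Mrc1, described above, was the other gene of the list with an interval above 0, and the other kept genes had intervals that included 0. Csf1r, the receptor for the macrophage growth factor, had 86 and 14 counts (-0.33, -1.15 to 0.60). Mertk, Cx3cr1 and Trem2 were at or below the limit in both samples.

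In the other direction, complement C3, the central component of the cascade, had 12 counts in MHCII+ cells and 19 in monocytes (-3.61, -4.79 to -2.49), opposite in sign to the C1q genes. That interval includes -2.79, the ratio of a gene at the mean of the negative control probes in both samples. The MHCII+ count of C3 was below the limit, and without scaling its ratio was -0.66. Higher expression in monocytes is thus not shown for C3. All 7 complement genes measured were kept, with a median of 1.5, and of 9 Fc receptors and adaptors 6 were kept, with a median of -0.31. C3ar1, the receptor for the C3a fragment, had 109 and 5 counts (1.5, 0.23 to 3.15). Fcgr2b, the inhibitory Fc receptor, was also past the threshold, with 165 and 5 counts (2.10, 0.84 to 3.74), while Fcgr3, an activating one, had 66 and 13 (-0.60, -1.48 to 0.38). The inhibitory and activating receptor thus lay on different sides of 0, and the interval of Fcgr3 included it.

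Ear3, a member of the eosinophil-associated ribonuclease family, had 155 counts in MHCII+ cells and 4 in monocytes (2.33, 0.94 to 4.22). The granulocyte markers Prg2, Epx, Ccr3 and Siglecf were below the limit in both samples. The family has near-identical members, so the count may not be of Ear3 alone. Ccl2, the ligand of CCR2, had 369 and 11 counts (2.12, 1.26 to 3.13). Ptafr, the receptor for platelet activating factor, had 66 and 2 counts (2.10, 0.19 to 5.17). Rgl1, a Ral exchange factor, had 48 counts and 1 count (2.64, 0.09 to 7.97), and Rgs1, a regulator of G protein signalling, had 34 counts and 1 count (2.14, -0.44 to 7.48). Counts of 1 or 2 leave the size of these ratios undetermined. With low counts raised to the limit, the ratios of Ptafr, Rgl1 and Rgs1 were below 0. Of 28 chemokines measured 14 were kept, with a median of 0.65. Of these 14, Ccl2 was past the threshold and Ccl9 (510 and 26 counts, 1.35, 0.78 to 1.97) and Cxcl2 (321 and 15 counts, 1.47, 0.73 to 2.32) had intervals above 0. None had an interval below 0.

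Besides Chil3, Chil4 and C3, the genes above the limit in monocytes only were Tnfaip6 and Ly6c1. Tnfaip6, a secreted hyaluronan-binding protein induced by TNF, had 2 counts in MHCII+ cells and 21 in monocytes (-6.34, -9.48 to -4.31). Ly6c1 was at -5.95 (-9.11 to -3.86). Of 10 genes measured from the list of classical monocyte markers, 7 were kept, Chil3 and Ly6c1 were past the threshold, and the median was -0.62. The list also held Nr4a1 (56 and 14 counts, -0.95), which is not particular to classical monocytes, and a median without that gene is not given. Fn1, fibronectin, had 199 and 29 counts (-0.17, -0.74 to 0.45), and the alarmins S100a8 and S100a9 were below the limit in both samples. Chil3, Chil4, C3, Tnfaip6 and Ly6c1 were the only kept genes with more raw counts in monocytes, and Gsn, which encodes the actin-severing protein gelsolin, had 17 counts in both (-2.95, -4.01 to -1.89). Tnfaip6, C3 and Gsn are also made by fibroblasts. Of the stromal markers, Col3a1 had 3 counts in MHCII+ cells and 14 in monocytes, Col1a2 and Pdgfra were below the limit in both samples, and their part in these ratios was not tested. Gpr65, a proton-sensing receptor, had 24 and 19 counts (-2.61, -3.54 to -1.66) and Itgb7, an integrin beta chain, had 16 and 11 (-2.41, -3.61 to -1.16). Hpgd (24 and 12 counts) and Dnajb6 (22 and 11) were just short of the threshold, at -1.95 each. Itgb7, Hpgd and Dnajb6 were below the limit in monocytes, the sample in which their share was larger. A gene at the mean of the negative control probes in both samples would be at -2.79. That is close to the ratios of Gsn, Gpr65 and Itgb7, and the interval of C3 includes it. Higher expression in monocytes is therefore not shown for these genes.

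Mx1, an interferon-induced antiviral protein given as a marker for this comparison, had 1 count in MHCII+ cells and 11 in monocytes. Its log2 ratio was -6.41 (-11.84 to -3.63), and both counts were below the limit, so the gene was not kept. Irf7 and Usp18, which interferon also induces, were below the limit in both samples too. Of 11 interferon response genes measured, Isg15 (19 and 2 counts), Irf1 (79 and 6) and Cxcl10 (42 and 4) were kept, all through MHCII+ cells, and the interval of each included 0. An interferon response that differed between the populations was not detectable at this depth.

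The other 2 sorted populations of stressed mice, Ly6C-inter and Ly6C-low cells, separate the genes that were higher in MHCII+ cells into groups. Retnla had 114 counts in Ly6C-inter and 55 in Ly6C-low cells, against 4 in Ly6C-high monocytes. C1qb had 100 and 27 counts in those populations, C1qc 103 and 35, Apoe 187 and 60, and Ccl2 152 and 58. These macrophage genes were thus above the limits of the Ly6C-inter and Ly6C-low samples (22.99 and 12.5 counts) while the Ly6C-high sample was below its own. H2-Aa (21 and 12 counts) and Ear3 (3 and 4 counts) were below the limit in both populations. Chil3 had 8 and 3 counts there and Chil4 6 and 2, so among the stressed samples both were above the limit in Ly6C-high monocytes alone. Each of these is a single pool, and the differences were not tested.

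**Figure D3:**
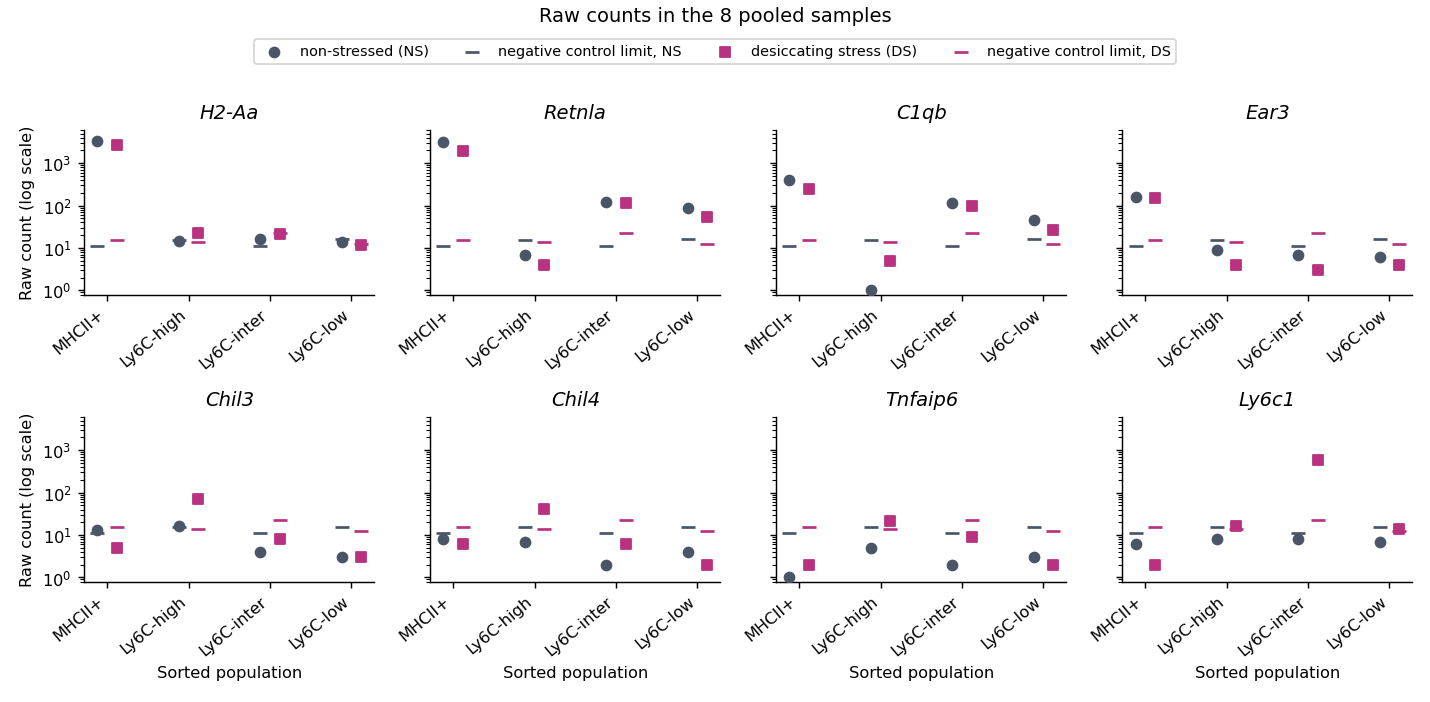
Raw counts of 8 genes (y axis, log scale) in the 4 sorted populations (x axis) of non-stressed and stressed mice, 1 pooled sample per point. The short bars are the negative control limits of each sample. H2-Aa, Retnla and Ear3 are highest in MHCII+ cells, Chil3, Chil4 and Tnfaip6 in stressed Ly6C-high monocytes, and Ly6c1 in stressed Ly6C-inter cells with 583 counts.

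Among the 47 genes above the limit in both samples, where neither count was at background, the contrast was smaller. The interval was above 0 for 7 of them, below 0 for 13 and included 0 for 27, and the median log2 ratio was -0.22. The 7 higher genes were H2-Aa, Cd74, Cxcl2, Ccl9, Crip1, Dusp1 and Cd83. Crip1, a small LIM protein, had 1018 and 53 counts (1.31, 0.92 to 1.74), and Dusp1, a phosphatase of the MAP kinases, had 702 and 49 (0.89, 0.47 to 1.34). Both were among the 5 highest counts of monocytes and were higher still, as a share of the total, in MHCII+ cells.

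Besides Gsn and Gpr65, the 13 lower genes included a component of the phagocyte oxidase. Of the genes of this group, Cybb, Mpeg1, Ptprc, S100a11, Emp1 and Nr4a2 are named because their values were seen. Cybb, the catalytic subunit, had 107 counts in MHCII+ cells and 35 in monocytes (-1.34, -1.90 to -0.74). Mpeg1, a pore-forming protein of phagocytes, had 98 and 30 counts (-1.24, -1.84 to -0.60). Thus both phagocyte genes made up a larger share of the monocyte counts. Cebpb, a transcription factor of myeloid cells, had 113 and 35 counts (-1.26, -1.82 to -0.67), Tyrobp, a signalling adaptor of myeloid receptors, had 184 and 46 (-0.95, -1.42 to -0.45), and Ptprc, the gene of CD45, had 88 and 27 (-1.24, -1.88 to -0.56). S100a4, a calcium-binding protein and the highest count of monocytes, had 373 and 74 counts (-0.62, -0.98 to -0.24), and S100a11 had 158 and 44 (-1.10, -1.59 to -0.59). Nr4a2, Emp1 and Plaur also had an interval below 0. Of the 11 genes other than Gsn and Gpr65, none reached a log2 ratio of -2, and without scaling all of them had more counts in MHCII+ cells.

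Of the 218 kept genes, 164 (75.2%) had an interval that included 0, and genes of the IL-1 family were among them. Il1b had 290 and 31 counts (0.28, -0.26 to 0.86), and Il1rn, the receptor antagonist, had 108 and 10 (0.48, -0.45 to 1.58). Nlrp3 had 41 and 5 counts, and Casp1 was below the limit in both samples. Of 12 genes of the IL-1 family and inflammasome measured, 4 were kept and the intervals of all 4 included 0, while Il1b alone of the 4 was above the limit in monocytes. Of 16 integrin and adhesion genes, 8 were kept and 1, Itgb7, passed the threshold. Of 20 pattern recognition and scavenger receptors, 6 were kept, Cd163 had an interval above 0, and Cd14, the coreceptor for bacterial lipopolysaccharide, was at 0.09 (-0.54 to 0.78) with 189 and 23 counts. Matrix proteases and cathepsins (8 of 15 kept) had a median of 0.40, and immediate early and stress genes (10 of 13 kept) a median of 0.15. Of 18 inflammatory cytokines and alarmins 6 were kept, and Tnfaip6 was the gene past the threshold. Of 16 chemokine receptors 3 were kept, Ccr2, Ccr1 (28 and 5 counts) and Cxcr4 (52 and 11), each with an interval that included 0. In the protease list Plaur, and among the immediate early genes Cebpb, had an interval below 0, while that of Dusp1 was above it.

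**Figure D4:**
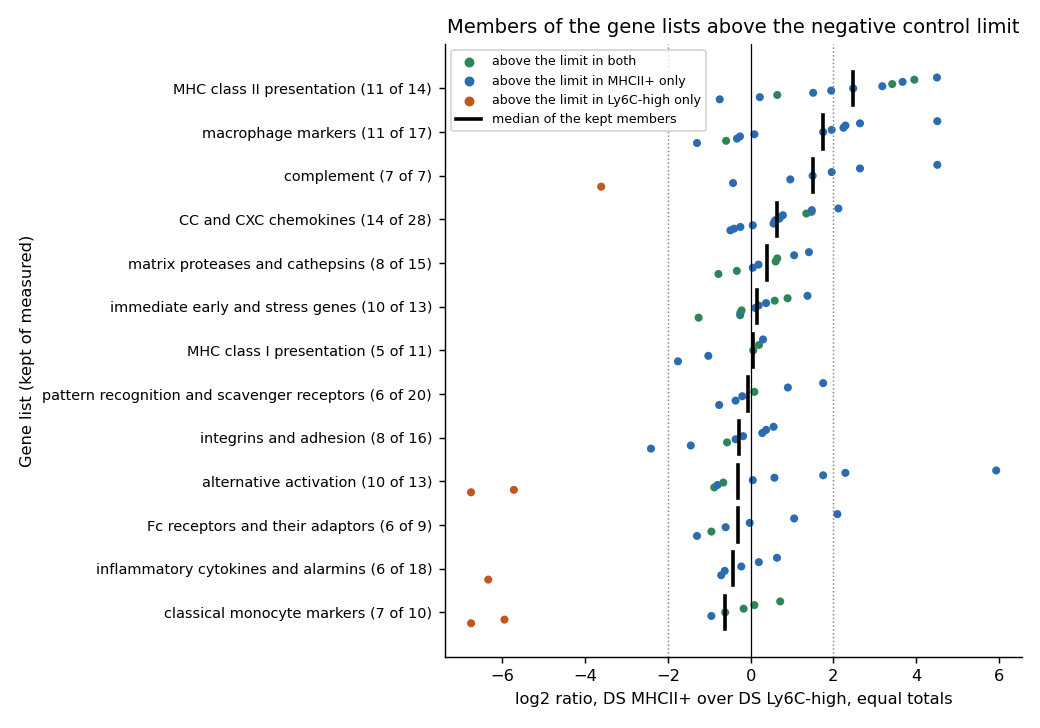
log2 ratios of stressed MHCII+ cells over stressed Ly6C-high monocytes (x axis) for the kept members of 13 gene lists with at least 5 kept members (y axis, kept of measured in parentheses), 1 point per gene coloured by the samples in which it was above the limit. Black bars are medians, which range from 2.48 for class II presentation to -0.62 for classical monocyte markers.

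The same populations without stress, which share no sample with the stressed pair, were compared in the same way. The NS MHCII+ sample had 39677 counts and the NS monocyte sample 2728, and 24 of the 218 genes were above the limit in both, so this pair was the shallower one on the monocyte side. Of the 218 genes, 14 (6.42%) were higher and 9 (4.13%) lower by a log2 ratio of 2 in NS MHCII+ cells against NS monocytes. Of the 17 genes higher under stress, all 17 had a ratio above 0 without it and 8 were past the threshold. Of the 8 lower genes, all 8 were below 0 and 6 were past it. In this pair a gene at the mean of the negative control probes in both samples would be at -4.48. Chil4 (8 and 7 counts), Ly6c1 (6 and 8) and Tnfaip6 (1 and 5), 3 of the 8, were below the limit in both NS samples, so their ratios without stress are those of background. C3, Gpr65, Gsn and Itgb7 had 9, 10, 5 and 3 counts in NS monocytes, below the limit there (15.1). Ratios below 0 in this pair are therefore no check on the 8 lower genes. Across the 218 genes the 2 sets of ratios had a Pearson's r of 0.73, which is a description over genes, as genes are not independent replicates and both sets share the probes. Chil3 was at -4.16 (-5.34 to -3.01) without stress and -6.76 under it. Its counts without stress were 13 in MHCII+ cells and 16 in monocytes. Ear3 had 157 and 9 counts without stress, a ratio of 0.26 (-0.70 to 1.42), against 2.33 under stress, with nearly equal counts in both MHCII+ samples. Mpeg1 was at 0.02 (-0.90 to 1.11) without stress, from 147 and 10 counts, and at -1.24 under it. C1qb was at 4.80 (2.31 to 10.1) without stress and 2.64 under it. The counts of Ear3, Mpeg1 and C1qb in NS monocytes were below the limit of that sample (15.1), and that of Chil3 was just above it. With 1 pool of each kind the differences between the pairs have no replicate check and were not tested.

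The number of genes past the threshold moved with the scaling. Unscaled counts put 181 genes past it on the higher side and 4 on the lower. Of the 20 reference genes, Ppia and Rpl19 were above the limit in both samples, and the 6 kept ones had a median of -0.07. With the geometric mean of all 20 the numbers were 55 and 5, and with the positive control probes 190 and 4. With equal totals over the kept genes alone they were 9 and 18, and with the mean of the negative control probes subtracted first 26 and 12. The class II genes H2-Aa, H2-Ab1, H2-Eb1 and Cd74, together with Retnla, were higher and past the threshold under each of the settings shown, and Chil3, Chil4, Tnfaip6 and Ly6c1 lower and past it. Smaller ratios changed sign with the scaling. That of S100a4 (-0.62) was 2.33 without scaling, 2.63 with the positive controls, 0.69 with the reference genes and 0.13 with totals that left out the 10 top genes. The scalings moved the median of the kept genes from 0.02 to between -0.61 and 3.26.

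**Figure D5:**
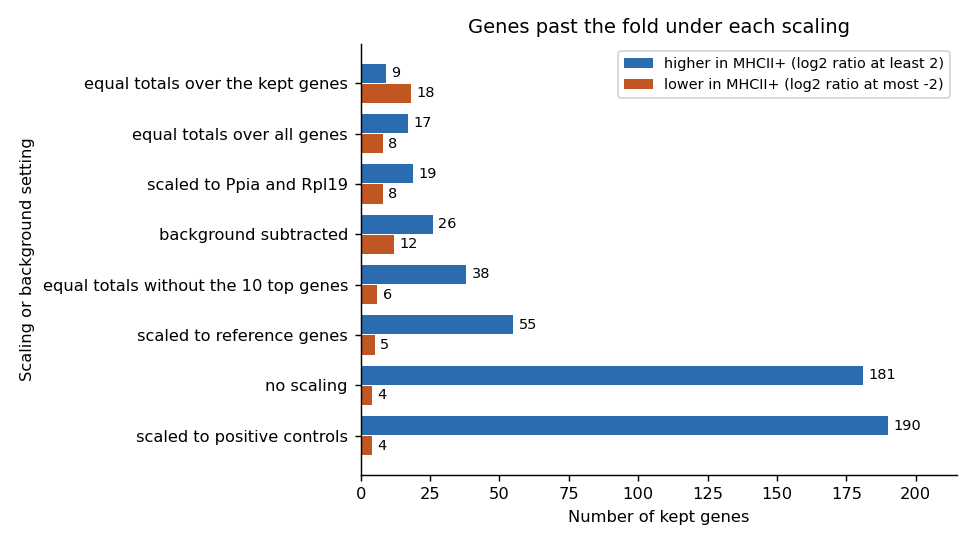
Numbers of the 218 kept genes (x axis) that were higher or lower in stressed MHCII+ cells than in stressed Ly6C-high monocytes by a log2 ratio of 2, under 8 ways of scaling the counts or treating background (y axis). The number of higher genes runs from 9 to 190 and that of lower genes from 4 to 18.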

How the data were processed

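CD11b+ cells were sorted from pooled mouse conjunctivae by the authors, who measured their RNA with an nCounter panel (NanoString) of mouse genes of myeloid innate immunity and deposited raw counts per probe, without normalization, for 768 probes (754 genes, 8 negative and 6 positive controls). No value is under 1. No column of another sample was met (0 such columns). The members of the comparison, the gene lists and the tests were chosen with earlier results of these data known.

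Both samples were scaled to equal totals over the 754 genes. Genes above the negative control limit (mean + 2 SD) in at least 1 of the 2 samples were kept. Higher and lower refer to a log2 ratio of 2 in either direction, a threshold taken from the study's methods. Intervals (95%, exact Clopper-Pearson) cover counting error only. With 1 sample per group no test across replicates was possible. Totals were 30335 counts in MHCII+ cells and 3929 in monocytes, which limits the precision of the latter.

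Named genes were H2-Aa, Cd74, Chil3 and Mx1, the 10 kept genes in each direction with the interval limit farthest from 0, the 5 highest counts of each sample, markers of the sort, kept members of 21 gene lists, and near paralogs. Other genes are named because their values were seen, and some that the rule names are not reported here. RefSeq's annotation of GRCm38.p6 held 744 of the gene names as symbols and 9 as synonyms, and also gave the promoter windows. The 8 motifs searched were CTGATTGG, CCAAT, which overlaps it, GCAAC, TGACGTCA, the STAT6 motif, TTGCGCAA and TTGCNNAA, which overlap each other, and an interferon response element, on both strands. Those shown were chosen after matches were seen.

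The alternatives covered the scaling, the treatment of background, the filter, the pseudocount and the threshold. The code was tested on simulated data. It ran under Python 3.11.15 with scipy 1.17.1 for intervals, Biopython 1.88 for alignments, matplotlib 3.10.9, pandas 2.3.3 and numpy 2.4.6.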

Additional observations from a re-analysis of the deposited data

How the results depend on the processing

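The numbers of genes past the log2 ratio of 2 (17 higher and 8 lower, of which 8 and 6 were also past it without stress) moved with most settings. Without scaling they were 181 and 4 (179 and 1 in the non-stressed pair), and scaled to the positive controls 190 and 4 (189 and 1). Scaled to the reference genes they were 55 and 5 (32 of the higher in the non-stressed pair). Without the 10 top genes in the totals 38 were higher (16 without stress). With totals over the kept genes they were 9 and 18 (11 of the lower without stress). With background subtracted 26 were higher (13 without stress), and the median of the classical monocyte markers less that of all kept genes was -1.58 in place of -0.64. With counts raised to the limit they were 5 and 64 (5 and 63). With no filter 361 were lower (293 without stress), as genes at background in both samples enter. Of the genes above the limit in both, 2 were higher and 2 lower (2 and 1). With a limit of the mean + 3 SD 5 were lower, and with a count of at least 30 there were 2 (2 without stress), since fewer genes were kept. With a threshold of 1 they were 45 and 37 (19 and 16), and 30 genes had an interval below 0.

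Some single genes changed sign. Without scaling Gpr65 was at 0.34 and Itgb7 at 0.54, and with the positive controls Gsn was at 0.29, Gpr65 at 0.63 and Itgb7 at 0.83. With counts raised to the limit H2-DMb1 was at -0.63, Ptafr at -0.72, Rgl1 at -1.18, H2-DMb2 at -1.33 and Rgs1 at -1.67. These shifts follow from the construction of each setting, as the totals differ by 7.72 times. The settings do not show which scaling is right. No paired analysis was possible because each group has 1 sample, and for the same reason no replicate could be left out. Summed over the genes that lay above the negative control mean alone, the excess in monocytes was 1529 counts, which takes in scatter of the background. The total of that sample (3929 counts) was about that of 754 genes at this mean (3958.5). Every ratio that rests on a low monocyte count is limited by this.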
